A study of Mus musculus with 48 samples.

Results

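Brain capillaries are lined by endothelial cells that seal the blood from the nervous tissue, and 10 genes that mark these cells were followed here through mouse dentate gyrus and a set of cortex-like libraries. The genes were Cldn5, Pecam1, Slco1a4, Mfsd2a, Flt1, Ly6c1, Abcb1a, Slc2a1, Tek and Vwf. They were chosen by symbol, with their counts in the 8 sample groups already in view, and were looked up by mouse symbol among the 48709 Ensembl genes counted, all 10 were found, and all 10 passed the filter on low counts in every comparison. No threshold or contrast entered the choice. Since earlier results of these data were known, the levels across groups are given as a description, and the calls are not independent evidence about the list.

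RNA from whole tissue of male C57BL/6J mice was measured in 3 experiments with 1 library per mouse, except that 2 mice of the amyloid cross were sequenced in 2 runs that were summed here. In the first, mice lacking the actin-nucleating formin Fmn2 throughout the body (Fmn2-/-) were set against Fmn2+/+ mice at 3 months (5 against 5) and 8 months (5 against 3), to ask what the loss of Fmn2 does before and after memory declines. In the second, 3-month-old mice that all had amyloid transgenes, among them human mutant APP under the neuronal Thy1 promoter, carried the labels FMN2-/-_APP (7 mice) or FMN2 +/+ APP (9 mice). In the third, 6 APP mice were set against 6 wild-type mice at 4 months, with Fmn2 intact in both groups. Nothing in the labels says that mice came from separate litters, so p-values measure the spread between these mice.

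Some labels did not match the RNA, and the results below are worded accordingly. Fmn2 lay between 77.1 and 109 CPM (counts relative to library size, scaled with TMM factors) in the Fmn2+/+ mice of the first experiment and between 21.6 and 28.2 CPM in the Fmn2-/- mice. In the cross the order was the opposite, with at least 83.3 CPM in the libraries labelled FMN2-/-_APP and 18.9 to 23.4 CPM in those labelled FMN2 +/+ APP. Directions in the cross are therefore given between libraries as labelled, and which of these groups lacked Fmn2 cannot be read from the labels alone. The 4-month libraries were named dentate gyrus in one label and PFC in another: 8 granule cell markers summed to 256 to 337 CPM there against 972 to 1714 CPM in the other libraries, and 8 cortical layer markers to 656 to 752 CPM against 125 to 363 CPM. Library totals ran from 6818809 to 43921030 counts, and the lowest count of any of the 10 genes in any library was 51.

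Endothelial cells of the brain are joined by tight junctions, carry few transport vesicles and move nutrients through dedicated carriers. Neighbouring pericytes and astrocytes, and Wnt and vascular endothelial growth factor (VEGF) signals, help to form and keep this barrier. Claudin-5 (Cldn5) seals the tight junctions, PECAM-1 (Pecam1) is an adhesion molecule at cell contacts, Slc2a1 encodes the glucose carrier GLUT1, Mfsd2a the carrier of lysophosphatidylcholine lipids such as those holding docosahexaenoic acid, Slco1a4 an organic anion carrier and Abcb1a the efflux pump P-glycoprotein. Flt1 and Tek encode the receptors VEGFR1 and TIE2, Ly6c1 a lipid-anchored surface antigen and Vwf the clotting factor von Willebrand factor. In whole tissue, fewer endothelial cells and less RNA per cell cannot be told apart. Slc2a1 is also made by other brain cells. In the genome, the genes span Cldn5 (ENSMUSG00000041378) chr16:18776847-18778262, Pecam1 (ENSMUSG00000020717) chr11:106654217-106750628, Slco1a4 (ENSMUSG00000030237) chr6:141805440-141856199, Mfsd2a (ENSMUSG00000028655) chr4:122946850-122961188 and Flt1 (ENSMUSG00000029648) chr5:147561604-147726011 in mm10 (GENCODE annotation). The other genes are Ly6c1 (ENSMUSG00000079018) chr15:75044018-75048830, Abcb1a (ENSMUSG00000040584) chr5:8660077-8748575, Slc2a1 (ENSMUSG00000028645) chr4:119108711-119137983, Tek (ENSMUSG00000006386) chr4:94739289-94874976 and Vwf (ENSMUSG00000001930) chr6:125546774-125686679.

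The promoters of 4 of these genes are shown because their levels moved in the comparisons or set the range of levels. The RefSeq table (GRCm38.p6, the mm10 build of the files) held an entry for 8 of the 10 genes and not for Pecam1 and Vwf. Each run is the 250 bases before the RefSeq start of transcription, 5′ to 3′ on the gene's own strand, namely Mfsd2a chr4:122961189-122961438 (minus strand), Flt1 chr5:147726012-147726261 (minus), Slc2a1 chr4:119108495-119108744 (plus) and Cldn5 chr16:18776597-18776846 (plus). Capitals mark matches to the motifs named after them.
Mfsd2a: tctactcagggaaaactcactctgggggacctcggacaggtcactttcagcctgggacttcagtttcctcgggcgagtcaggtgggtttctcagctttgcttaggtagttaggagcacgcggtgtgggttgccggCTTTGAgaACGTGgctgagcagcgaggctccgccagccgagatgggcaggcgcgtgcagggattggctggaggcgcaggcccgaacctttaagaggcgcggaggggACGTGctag
Flt1: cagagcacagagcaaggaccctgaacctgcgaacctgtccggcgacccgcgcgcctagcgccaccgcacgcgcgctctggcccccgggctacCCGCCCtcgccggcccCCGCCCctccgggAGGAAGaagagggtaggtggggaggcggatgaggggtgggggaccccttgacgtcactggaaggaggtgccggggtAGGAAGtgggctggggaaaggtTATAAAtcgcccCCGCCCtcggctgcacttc
Slc2a1: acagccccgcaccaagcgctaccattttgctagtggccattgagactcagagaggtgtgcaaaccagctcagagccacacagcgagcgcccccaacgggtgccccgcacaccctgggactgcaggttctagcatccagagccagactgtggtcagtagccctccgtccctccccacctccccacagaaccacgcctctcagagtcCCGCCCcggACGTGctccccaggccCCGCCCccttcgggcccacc
Cldn5: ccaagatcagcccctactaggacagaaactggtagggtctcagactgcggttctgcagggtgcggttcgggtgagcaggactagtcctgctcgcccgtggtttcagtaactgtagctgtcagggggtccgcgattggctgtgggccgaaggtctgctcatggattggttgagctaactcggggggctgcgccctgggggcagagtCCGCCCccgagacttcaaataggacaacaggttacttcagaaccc

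The motifs searched on both strands were AGGAAG and CCGGAAG (cores of ETS factors, which are prominent in endothelium), GGGCGG (an SP1 box), CTTTGA (a TCF/LEF core of the Wnt pathway), ACGTG (the core shared by hypoxia-inducible and E-box factors), ACAAT (a SOX core) and TATAAA. Of the 32851 promoters in the table, 29.5% held AGGAAG, 6.91% CCGGAAG, 32.7% GGGCGG, 13.8% CTTTGA, 16.6% ACGTG, 27.7% ACAAT and 12.4% TATAAA in the same 250 bases. The Mfsd2a promoter held CTTTGA at -115 and ACGTG at -107 and -9, counted from the start. The Flt1 promoter held AGGAAG at -129 and -53, TATAAA at -31 and 3 GGGCGG matches on the other strand, the Slc2a1 promoter ACGTG at -36 and 2 GGGCGG matches on the other strand, and the Cldn5 promoter 1 GGGCGG match at -45. Among the 8 genes with an entry, AGGAAG was present in 4 (Slco1a4, Flt1, Ly6c1, Abcb1a), GGGCGG in 3, CTTTGA in 2 (Mfsd2a, Abcb1a), ACGTG in 2 (Mfsd2a, Slc2a1), ACAAT in 2 (Slco1a4, Tek), TATAAA in 2 (Flt1, Ly6c1) and CCGGAAG in none. Ly6c1 had 2 entries, with AGGAAG only in entry 2 and TATAAA only in entry 1, whereas the shares over all promoters count each entry. The Abcb1a entry, chr5:8566841-8567090, lay upstream of the gene span given above and did not adjoin it. The GC content was 61.6% for Mfsd2a, 70.4% for Flt1, 66.4% for Slc2a1 and 59.6% for Cldn5, against a median of 52.4% over all promoters. These matches describe the letters only, since nothing bound to the promoters was measured.

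Per kilobase of exon, the scale on which levels of different genes can be set side by side, the glucose carrier Slc2a1 was the most abundant of the 10, with a median of 22.9 CPM per kb over the 46 mice. Ly6c1 (13.1), Cldn5 (12.9) and Mfsd2a (12.8) followed, then Slco1a4 at 7.34 CPM per kb. Lowest were Pecam1 at 3.16, Tek at 3.11 and Vwf at 0.999 CPM per kb, Vwf having the longest exons of the 10 (16064 bases). The efflux pump gene Abcb1a and the receptor gene Flt1 lay between these, and the receptors and the clotting factor stood below the junction gene Cldn5.

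From mouse to mouse, Slc2a1 varied least, the highest of the 46 values being 2.15 times the lowest, and Vwf most, at 5.81 times. Mfsd2a (4.78 times), Cldn5 (3.98), Flt1 (3.53) and Tek (3.51) came next to Vwf, and Abcb1a (2.37) next to Slc2a1. Summed over the 10 genes, the median per group lay between 263 CPM (labelled FMN2 +/+ APP) and 389 CPM (Fmn2+/+ at 8 months). The widest group was that labelled FMN2-/-_APP, with sums from 240.3 to 464 CPM. The sums of Fmn2+/+ mice at 3 months, 312 to 338 CPM, lay below those of Fmn2-/- mice at 8 months (339 to 368 CPM) and of both 4-month groups (343 to 431 CPM), and every other pair of groups overlapped.

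**Figure D1:**
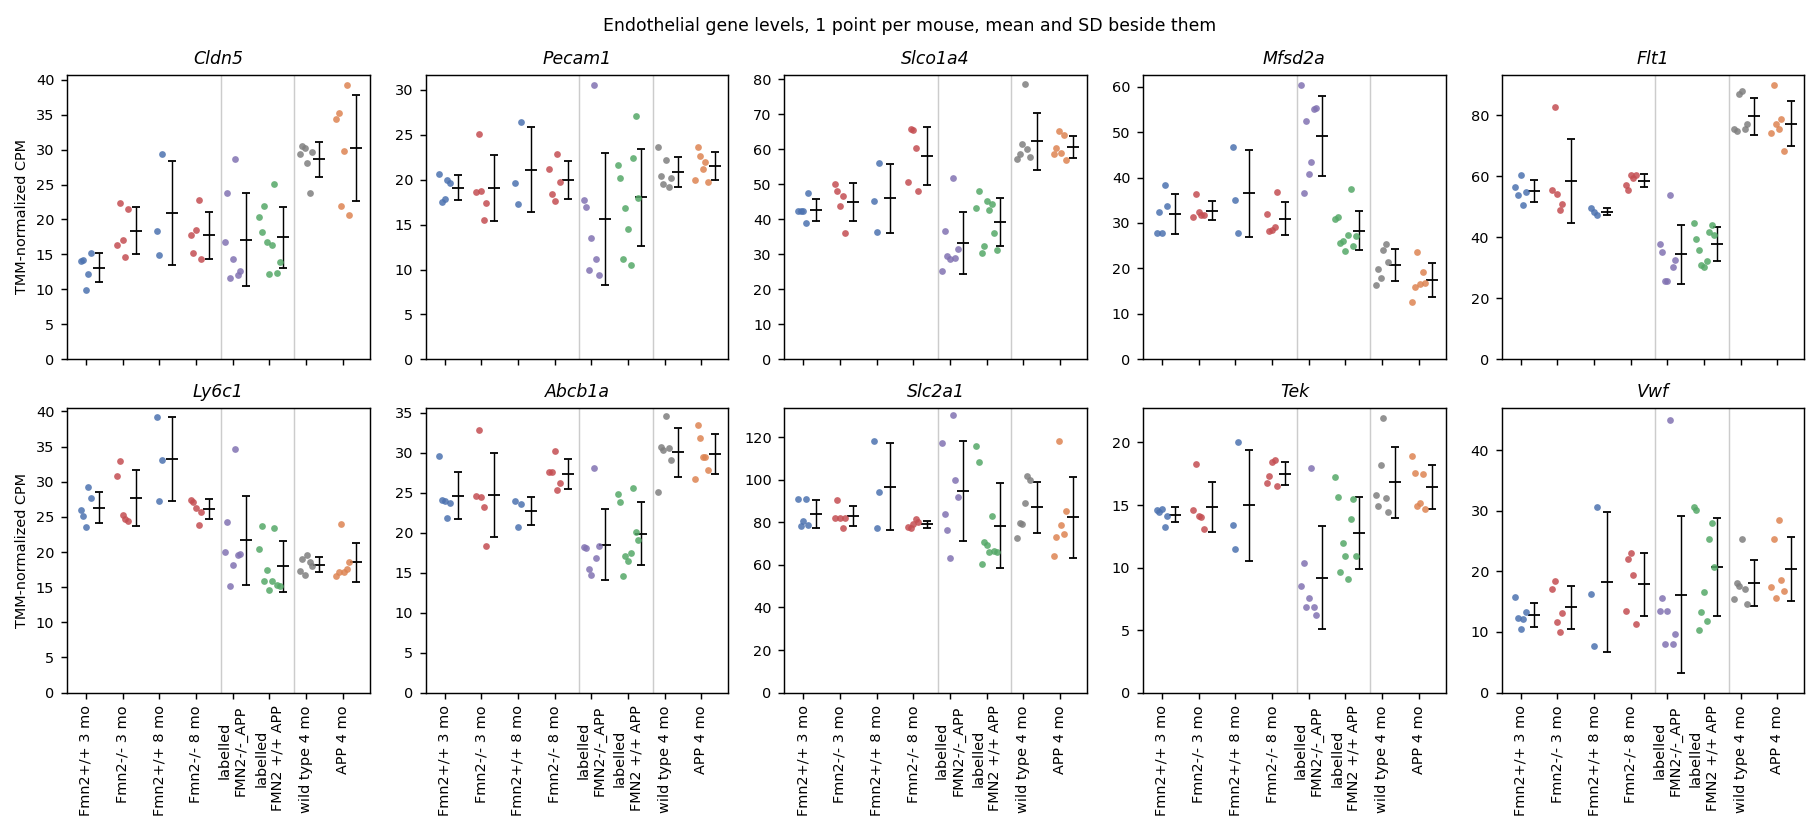
Level of each of the 10 genes in every mouse (points, TMM-normalized CPM on the vertical axis from 0) in the 8 groups on the horizontal axis, with the group mean and SD as a bar beside the points. Mfsd2a reaches from 12.6 CPM in an APP mouse at 4 months to 60.3 CPM in a library labelled FMN2-/-_APP, and Flt1 from 25.5 to 90.02 CPM.

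Levels in the 8 groups followed different orders for different genes. These orders compare experiments and tissues as well as genotypes and carry no test. Flt1 was highest in the 4-month groups, at 79.6 ± 6.05 (wild type, SD, n = 6) and 77.2 ± 7.25 CPM (APP, n = 6), lay between 48.4 and 58.5 CPM on average in the Fmn2 experiment, and was lowest in the cross, at 37.7 ± 5.65 (labelled FMN2 +/+ APP, n = 9) and 34.4 ± 9.73 CPM (labelled FMN2-/-_APP, n = 7). Mfsd2a took the opposite end, with its lowest means in the 4-month groups, 20.8 ± 3.52 (wild type, n = 6) and 17.5 ± 3.70 CPM (APP, n = 6), and its highest mean, 49.2 ± 8.83 CPM (n = 7), in the group labelled FMN2-/-_APP. Cldn5 was likewise highest at 4 months (30.2 ± 7.53 CPM in APP, n = 6) and lowest in Fmn2+/+ mice at 3 months (13.1 ± 2.12 CPM, n = 5), and Slco1a4 ran from 33.2 ± 8.90 CPM (labelled FMN2-/-_APP, n = 7) to 62.4 ± 8.15 CPM (wild type at 4 months, n = 6). For neighbours in the order of the 8 group means, the gap exceeded the larger of their SDs in 3 of 7 steps for Flt1, 2 of 7 for Mfsd2a and 1 of 7 each for Cldn5 and Slco1a4. In Pecam1, Ly6c1, Abcb1a, Slc2a1, Tek and Vwf no neighbouring groups differed by more than that spread.

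Tek and Abcb1a were lowest in the libraries labelled FMN2-/-_APP, Tek at 9.18 ± 4.12 and Abcb1a at 18.5 ± 4.46 CPM (n = 7). Tek was highest in Fmn2-/- mice at 8 months (17.5 ± 0.939 CPM, n = 5) and Abcb1a in wild-type mice at 4 months (30.1 ± 3.05 CPM, n = 6). Pecam1 kept the narrowest span of group means after Slc2a1, from 15.6 ± 7.38 (labelled FMN2-/-_APP, n = 7) to 21.5 ± 1.53 CPM (APP at 4 months, n = 6). Slc2a1 ran from 78.5 ± 20.1 (labelled FMN2 +/+ APP, n = 9) to 96.7 ± 20.5 CPM (Fmn2+/+ at 8 months, n = 3), less than the spread within either group. Ly6c1 was highest in Fmn2+/+ mice at 8 months (33.2 ± 6.01 CPM, n = 3) and stood at 18.2 ± 1.05 CPM in wild-type mice at 4 months (n = 6), so that it did not share the high 4-month levels of Flt1, Cldn5 and Slco1a4. Vwf had the widest spread within a group relative to its mean, 16.2 ± 13.0 CPM in the libraries labelled FMN2-/-_APP (n = 7), and its group means ran from 12.8 ± 1.94 (Fmn2+/+ at 3 months, n = 5) to 20.7 ± 8.08 CPM (labelled FMN2 +/+ APP, n = 9).

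At 3 months, no barrier gene passed the test between Fmn2-/- and Fmn2+/+ mice, and Cldn5 was the only gene of the 10 with a log2 difference above 0.25. A call required an adjusted p below 0.05 from edgeR's quasi-likelihood test over all genes and a log2 fold change of at least 0.25 in size, and 0.0361% of the 16630 genes tested were called. None of the 10 was called by edgeR or by DESeq2, and 1 (Cldn5) had an unadjusted p under 0.05. In the 5 Fmn2+/+ mice Cldn5 was at 14.1, 14.2, 9.88, 12.2 and 15.3 CPM, and in the 5 Fmn2-/- mice at 16.4, 22.4, 17.1, 14.6 and 21.5 CPM. All but 1 of the Fmn2-/- mice lay above every Fmn2+/+ mouse, and the groups overlapped only through the lowest Fmn2-/- value. Cldn5 had a log2 fold change of 0.49 (SE 0.142), with an adjusted p of 0.279 (edgeR, n = 5 and 5). All Fmn2+/+ libraries were on lane 5 and 4 of the 5 Fmn2-/- libraries on lane 6. With the lane as a covariate the value for Cldn5 was 0.33, which rests on the 1 Fmn2-/- library that was on lane 5. With the replicate block and length and GC offsets the value was 0.21 (edgeR adjusted p 0.999). Over the 10 genes the log2 fold changes ran from -0.02 to 0.49 with a median of 0.06, against 0.00 over all genes, and 7 of 10 were above 0, but without Fmn2-/- replicate 2 the median was -0.03 with 3 above 0. No barrier gene was without overlap between the groups, where 2.71% of all genes were.

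At 8 months, the VEGF receptor gene Flt1 was higher in Fmn2-/- mice, the efflux pump gene Abcb1a was separated between the groups without passing the test, and Ly6c1 and Slc2a1 pointed the other way. Of the 10 genes, 1 was called (Flt1, also by DESeq2), where 2.13% of the 14665 genes tested were called in either direction, and 5 had an unadjusted p under 0.05. The 3 Fmn2+/+ mice held Flt1 at 49.7, 48.2 and 47.2 CPM, and the 5 Fmn2-/- mice at 57.3, 55.4, 60.4, 59.4 and 60.2 CPM. Every Fmn2-/- mouse lay above every Fmn2+/+ mouse. For Flt1 the log2 fold change was 0.28 (SE 0.067, edgeR adjusted p 0.0497), just inside the threshold, and the call was lost in every leave-one-out fit except that without Fmn2+/+ replicate 2, and under 8 other settings.

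Abcb1a was at 23.9, 20.7 and 23.6 CPM in Fmn2+/+ and at 27.6, 27.5, 30.2, 25.3 and 26.2 CPM in Fmn2-/- mice at 8 months. As for Flt1, no Fmn2-/- value reached down to the Fmn2+/+ values, and the log2 fold change was 0.26 (SE 0.088, edgeR adjusted p 0.118). Abcb1a and Flt1 were 2 of 10 genes higher without overlap in Fmn2-/- mice, against 4.98% of all genes, and 11.7% of all genes did not overlap in either direction. Slco1a4, the organic anion carrier, had a log2 fold change of 0.34 (edgeR adjusted p 0.178), with 3 of 5 Fmn2-/- mice above all 3 Fmn2+/+ mice.

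Ly6c1 was at 39.3, 27.3 and 33.1 CPM in Fmn2+/+ and at 27.5, 27.1, 26.2, 23.9 and 25.7 CPM in Fmn2-/- mice, with 4 of 5 Fmn2-/- mice below all Fmn2+/+ mice. Its log2 fold change was -0.37 (SE 0.104, edgeR adjusted p 0.0764), but -0.22 without Fmn2+/+ replicate 1 and -0.48 without replicate 2, where it was called (adjusted p 0.0027). Slc2a1 had a log2 fold change of -0.29 (edgeR adjusted p 0.126), which became -0.12 without Fmn2+/+ replicate 1 and -0.42 without replicate 2 (adjusted p 0.0024, called). Mfsd2a had one of -0.26 (edgeR adjusted p 0.297), which became -0.014 without Fmn2+/+ replicate 1 and -0.42 without replicate 3, and in both genes the groups overlapped. Ly6c1, Slc2a1 and Slco1a4 were also called without the filter on low counts (edgeR adjusted p 0.0089, 0.0185 and 0.0127). For Cldn5 the value was -0.22 (edgeR adjusted p 0.560), and without Fmn2+/+ replicate 3 it turned to 0.07. The median over the 10 genes was -0.05, with 4 above and 6 below 0. It moved to -0.23 without Fmn2+/+ replicate 2 and to 0.18 with 7 above 0 without replicate 3. With length and GC offsets it was 0.002, with 5 above 0. Exons were 13504 bases long in Flt1, 5480 in Abcb1a and 6414 in Slco1a4. In Ly6c1, Slc2a1, Mfsd2a and Cldn5 they were 1677, 3506, 2250 and 1416 bases long. Pecam1 (6228 bases) and Vwf (16064) also had lower means in Fmn2-/- mice, at ratios of 0.945 and 0.979. Beyond the fit with these offsets, the part of length and GC was not tested.

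The 3 Fmn2+/+ mice at 8 months were unlike one another in other vascular genes. Their 6 smooth muscle markers summed to 33.9, 39.3 and 279 CPM over the 3 mice, against 42.1 to 160.3 CPM in Fmn2-/-, and their 8 leptomeningeal and fibroblast markers to 111 to 466 CPM, against 194 to 335 CPM. No marker of either list was at 0 in all mice of a group. Their totals also differed, from 43921030 counts in replicate 1, on lane 6, to 6818809 counts and 8381078 counts on lane 7, where all Fmn2-/- mice ran. The part of these differences in the results at 8 months was not tested, beyond the leave-one-out and lane settings given in the closing section.

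Between 3 and 8 months in Fmn2+/+ mice, Cldn5 and Ly6c1 were higher at 8 months, and Flt1 was lower without passing the test. The fit used all 18 mice of the Fmn2 experiment. Its ages shared no lane within a genotype, the 3-month libraries being on lane 5 (Fmn2+/+) or on lanes 5 and 6 (Fmn2-/-) and the 8-month libraries on lanes 6 and 7 (Fmn2+/+) or on lane 7 (Fmn2-/-), so that within a genotype age and lane cannot be told apart. Of the 10 genes, 2 were called (Cldn5 and Ly6c1, both also by DESeq2), where 9.23% of the 17046 genes tested were called. Cldn5 was at 18.4, 14.99 and 29.3 CPM at 8 months against 9.88 to 15.3 CPM at 3 months, so that 2 of 3 older mice lay above all younger ones. Its log2 fold change was 0.68 (SE 0.201, edgeR adjusted p 0.0384).

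Ly6c1 lay between 23.6 and 29.2 CPM at 3 months and at 39.3, 27.3 and 33.1 CPM at 8 months, with a log2 fold change of 0.37 (SE 0.113, edgeR adjusted p 0.0434). Both calls were lost without Fmn2+/+ 8-month replicate 1 or 3, without 3-month Fmn2+/+ replicate 1, 2 or 3, without 8-month Fmn2-/- replicate 1 or 3, and with the lane as a covariate. Counted singly over the 18 leave-one-out fits, the call of Ly6c1 was lost in 12 and that of Cldn5 in 8. The lane fit links the lanes through single libraries, Fmn2-/- 3-month replicate 1 on lane 5 and Fmn2+/+ 8-month replicate 1 on lane 6. Flt1 was the only gene of the 10 whose ages did not overlap, at 47.2 to 49.7 CPM at 8 months and 50.6 to 60.2 CPM at 3 months, where 16.7% of all genes did not overlap in either direction and 7.44% were lower without overlap. Across the 10 genes the median log2 fold change was 0.19, with 8 above 0, but without Fmn2+/+ 8-month replicate 3 it was -0.02 with 5 above 0.

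In Fmn2-/- mice the gene that passed the test between the ages was Slco1a4, 1 of 10, where 6.49% of all genes were called. It was at 50.1, 48.2, 43.7, 46.6 and 36.1 CPM at 3 months and at 50.7, 65.9, 65.6, 60.4 and 48.1 CPM at 8 months. The groups overlapped through the 8-month mouse with the lowest value, the other 4 older mice lying above all younger ones. For Slco1a4 the log2 fold change was 0.38 (SE 0.110, edgeR adjusted p 0.0373, also called by DESeq2), and the call was lost without any of 3-month Fmn2-/- replicates 4, 5 and 6 or 8-month Fmn2-/- replicates 2, 3 and 4. With the lane as a covariate, neither Slco1a4 nor any other of all genes was called between the ages in Fmn2-/- mice, where edgeR without it called 1107. Tek had a log2 fold change of 0.25 (edgeR adjusted p 0.192), and of -0.016 with the lane. The median over the 10 genes was 0.04, and 0.19 without 3-month Fmn2-/- replicate 2. None of the 10 genes was without overlap, against 9.22% of all genes.

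Whether the change with age differed between the genotypes was asked by the interaction term, which shares its mice with both age comparisons. None of the 10 genes was called by edgeR or DESeq2, where 3.94% of all genes were called by edgeR, and 3 had an unadjusted p under 0.05. The interaction on the log2 scale was -0.72 (SE 0.266, edgeR adjusted p 0.118) for Cldn5, -0.44 (SE 0.150, adjusted p 0.0903) for Ly6c1 and -0.28 (adjusted p 0.175) for Slc2a1. A negative value means that the difference between 8 and 3 months was lower in Fmn2-/- than in Fmn2+/+ mice. Without Fmn2+/+ 8-month replicate 2 all 3 were called, and without Fmn2-/- 3-month replicate 2 Flt1 was called.

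**Figure D2:**
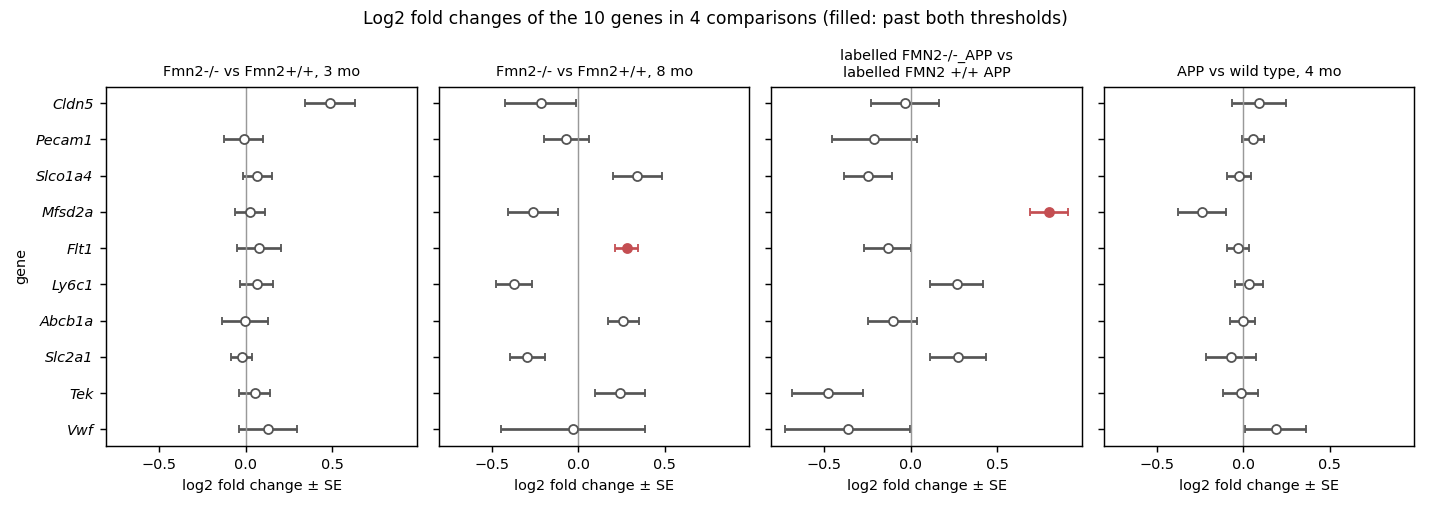
Log2 fold change (horizontal axis) and its standard error (bars) for each of the 10 genes (vertical axis) in 4 comparisons from edgeR, with filled points for genes past both the fold and the adjusted p threshold. Flt1 at 8 months (0.28) and Mfsd2a in the cross as labelled (0.80) are the filled points.

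In the amyloid cross, the lipid carrier gene Mfsd2a was on average 1.74 times as high in the libraries labelled FMN2-/-_APP as in those labelled FMN2 +/+ APP, the largest difference of any of the 10 genes in the comparisons between genotypes. Since Fmn2 RNA was high in the libraries labelled FMN2-/-_APP, Mfsd2a was higher where Fmn2 RNA was higher. Mfsd2a ran from 36.6 CPM over a median of 52.5 to 60.3 CPM in the 7 libraries labelled FMN2-/-_APP, and from 23.8 over a median of 27.1 to 37.5 CPM in the 9 labelled FMN2 +/+ APP. Only 1 library of each group reached into the range of the other, the lowest of the former (36.6 CPM) and the highest of the latter (37.5 CPM).

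The log2 fold change of Mfsd2a was 0.80 (SE 0.110, edgeR adjusted p 0.0011), and it was the 1 gene of 10 called, where 0.75% of the 16656 genes tested were called at a log2 fold change of at least 0.5 in size. DESeq2 called it too. Within lane 5 it lay at 36.6 to 60.3 against 25.9 to 31.4 CPM (3 libraries each), a mean log2 difference of 0.74, and within lane 6 at 40.9 to 55.4 against 23.8 to 27.3 CPM (3 each), a difference of 0.85. The pair sequenced on lanes 4 and 7 was at 55.1 against 37.5 CPM (0.55), and the 2 remaining libraries, both labelled FMN2 +/+ APP and on lane 7, had no counterpart. Leaving out each library in turn gave log2 fold changes from 0.74 to 0.85.

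In Fmn2-/- mice without the transgene, Mfsd2a did not show a difference of that size. The log2 fold change was 0.03 at 3 months and -0.26 at 8 months (-0.014 without Fmn2+/+ 8-month replicate 1), neither called by edgeR. Whether the comparisons differ from one another was not tested, since the Fmn2 labels of the cross go against its Fmn2 RNA. Measured against the mean log2 level of the other 9 genes in the same mouse, Mfsd2a was higher by 1.17 ± 0.60 (SD, n = 7) in the libraries labelled FMN2-/-_APP and by 0.22 ± 0.18 (n = 9) in those labelled FMN2 +/+ APP, and in the Fmn2 experiment the group means of this difference ran from 0.03 to 0.30. In the 4-month groups it was negative, at -0.66 ± 0.22 in wild type and -0.93 ± 0.28 in APP mice (n = 6 each).

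**Figure D3:**
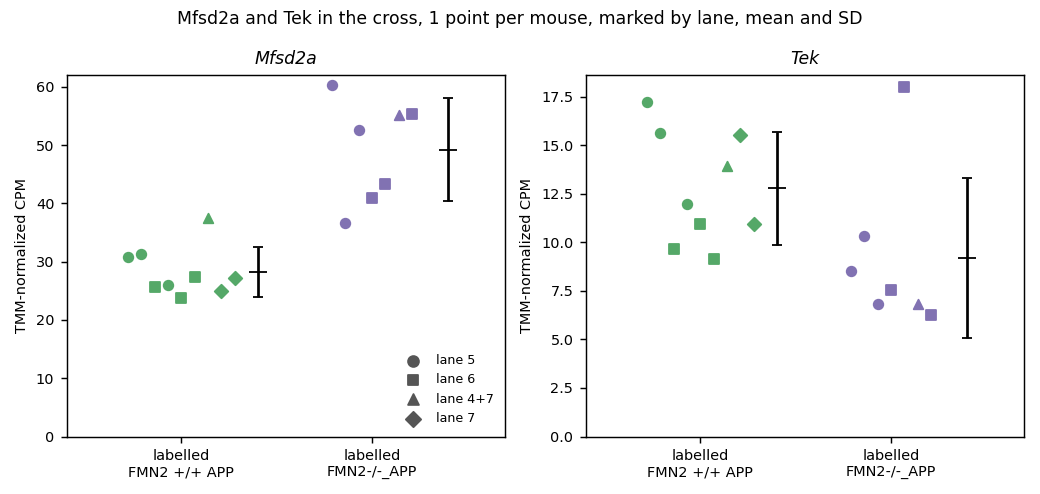
Mfsd2a and Tek in each mouse of the cross (points, TMM-normalized CPM on the vertical axis from 0) for the libraries labelled FMN2 +/+ APP and FMN2-/-_APP, with marker shapes for sequencing lanes and bars for the mean and SD. For Mfsd2a 6 of 7 libraries labelled FMN2-/-_APP lie above all 9 others, while for Tek replicate 5 of that group, at 17.98 CPM, lies above the rest of its group.

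Tek, the angiopoietin receptor, pointed the other way. It ran from 6.24 over a median of 7.54 to 17.98 CPM in the libraries labelled FMN2-/-_APP and from 9.12 over a median of 11.99 to 17.2 CPM in those labelled FMN2 +/+ APP. Of the 7 libraries labelled FMN2-/-_APP, 5 lay below all 9 others and 1, replicate 5, above them all. The log2 fold change was -0.48 (SE 0.205, unadjusted p 0.0313, edgeR adjusted p 0.248), and without that replicate it was -0.73 with an adjusted p of 0.0284, past the threshold. Within lanes the log2 difference was -0.81 on lane 5, where the labels did not overlap, -0.06 on lane 6, which held replicate 5, and -1.03 for the pair on lanes 4 and 7.

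The other 8 genes overlapped between the labels, and no gene of the 10 was separated completely, against 0.54% of all genes. Slco1a4 (log2 fold change -0.25, edgeR adjusted p 0.396) and Ly6c1 (0.27, adjusted p 0.403) were the next named, and the median of the 10 was -0.12 with 3 above 0. Without replicate 5 labelled FMN2-/-_APP these were -0.39 for Slco1a4, 0.11 for Ly6c1 and -0.26 for the median. Angpt1, which encodes the ligand of the Tek receptor and is made by pericytes and other support cells, was the one gene called among 12 of VEGF and angiopoietin signalling, at 9.48 ± 1.89 CPM (n = 7) labelled FMN2-/-_APP against 14.01 ± 1.64 CPM (n = 9) labelled FMN2 +/+ APP, a log2 fold change of -0.56 (edgeR adjusted p 0.0174).

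Sums of vessel wall and meningeal markers, like Tek, had lower medians in the libraries labelled FMN2-/-_APP, with no marker called. Log2 fold changes were also below 0 for 16 of 20 junction and adhesion genes (median -0.18), 16 of 19 transport genes (-0.10) and 7 of 8 microglial markers (-0.20). For 6 of 8 astrocyte markers they were above 0 (median 0.08), and no gene of these lists was called. Smooth muscle markers summed to 17.8 over a median of 27.03 to 146 CPM in the libraries labelled FMN2-/-_APP and to 23.04 over 92.6 to 178 CPM in those labelled FMN2 +/+ APP, with all 6 log2 fold changes negative (median -0.86) and none called. The 8 leptomeningeal and fibroblast markers summed to 85.1 over 166 to 442 CPM against 175 over 423 to 508 CPM (median log2 fold change -0.68, none called). The 8 choroid plexus markers had a median sum of 87.1 CPM in the libraries labelled FMN2 +/+ APP and 74.7 CPM in those labelled FMN2-/-_APP, with a highest value of 9226 CPM in the former and 120.3 CPM in the latter. Their 8 log2 fold changes were all below 0 (median -2.63), with none called. Higher medians in the libraries labelled FMN2-/-_APP were found for the red cell markers, at 51.1 against 35.5 CPM (5 of 5 log2 fold changes above 0, median 0.56), and for the oligodendrocyte markers, at 1962 against 1564 CPM (7 of 8 above 0, median 0.33), with none called. No marker of these lists was at 0 in every mouse of either group, and the part of these cells in the values of Tek, Angpt1 and Mfsd2a was not tested.

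At 4 months, none of the 10 genes differed between APP and wild-type mice by the test, with log2 fold changes from -0.24 to 0.19 around a median of -0.01. None had an unadjusted p under 0.05 in edgeR, none was called by DESeq2, and none was without overlap, where 2.3% of the 16733 genes tested were called by edgeR and 3.38% did not overlap. Flt1 lay at 68.1 over a median of 76.2 to 90.02 CPM in APP and at 74.8 over 76.3 to 87.9 CPM in wild-type mice. Mfsd2a lay at 12.6 to 23.7 CPM in APP and 16.3 to 25.4 CPM in wild type, a log2 fold change of -0.24 (edgeR adjusted p 0.510). The lane coincided with genotype, all APP libraries being on lane 7 and all wild-type libraries on lane 5, so that lane and genotype cannot be told apart.

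Around the 10 genes, a few genes of the other vessel lists did differ in these 4-month mice. Among 20 further junction and adhesion genes, 2 were higher in APP mice, F11r, which encodes the junctional adhesion molecule JAM-A, by a log2 fold change of 0.54 (edgeR adjusted p 0.0026), and Icam1, a leukocyte adhesion molecule, by 0.57 (adjusted p 0.0225). Among 19 transport genes tested, Slco2b1 was higher by 0.59, and among 12 of VEGF and angiopoietin signalling, Angpt1 by 0.58 (edgeR adjusted p 0.0109). In the same mice 7 of 8 microglial markers were called higher, among them C1qa (1.33) and Itgam (0.77), and the 8 markers summed to 491 to 633 CPM in APP against 306 to 329 CPM in wild type. Gfap of the astrocytes was higher by 2.10. All 8 oligodendrocyte markers had log2 fold changes below 0 (median -0.78) and all 5 red cell markers above 0 (median 0.51), none called. Whole-tissue counts do not say which cells made the RNA of F11r, Icam1, Slco2b1 and Angpt1. The part of microglia, astrocytes, oligodendrocytes and red cells in their calls was not tested.

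In the Fmn2 experiment the same lists held few calls. At 3 months no gene of the 17 lists apart from the 10 was called. At 8 months Plvap, a component of the diaphragms of leaky capillaries, was the one endothelial gene called, lower in Fmn2-/- by a log2 fold change of -0.49 (edgeR adjusted p 0.0368), along with Gfap (0.38) and Aqp4 (0.46) of the astrocytes and the granule cell gene C1ql2 (-0.65). Between the ages in Fmn2+/+ mice, Egfl7 (0.39), Plvap (0.37), Bsg (0.33) and Sox18 (0.67) were called higher and Tjp1 (-0.36) and Lrp6 (-0.27) lower at 8 months. In the interaction Egfl7 (-0.59), Plvap (-0.61), Bsg (-0.38) and Sox18 (-0.89) were called below 0 and Lrp6 (0.32) above 0. Cldn5 and Ly6c1, which were not called, were also below 0. That sign was the common one, since 534 of the 671 genes called over all genes were below 0 and 137 above. Over all genes, interaction calls fell from 671 to 21 with length and GC offsets and to 95 with the replicate block. Those between genotypes at 8 months fell from 312 to 41 and 4. Which of the list genes stayed called under these settings is not given here. In Fmn2-/- mice, Vegfb (-0.31), a VEGF family ligand, and Tspan12 (0.26) were called with age, with Lum (0.55) and Aqp4 (0.28) of the meningeal and astrocyte lists.

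Egfl7, Plvap and Sox18 are made by endothelium, Bsg by endothelium and other cells, and Tjp1 and Lrp6 by many cells. Of the 5 red cell markers, Hbb-bt (1.23) and Hba-a1 (1.11) were also called higher at 8 months in Fmn2+/+ mice, the list summing to 28.01 to 71.4 CPM against 27.6 to 44.7 CPM at 3 months, and Hba-a1 (-1.63) was called in the interaction. C1ql2 was called in both (0.70 with age, -0.91 in the interaction) and in the cross (0.59). No call was made in any comparison among the genes of arterial endothelium (10), venous endothelium (6, of which at most 4 were tested), coagulation and leakage (11), pericytes (10), smooth muscle (6), choroid plexus (8), oligodendrocytes (8) or cortical layer neurons (8).

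The 10 genes varied together from mouse to mouse, Mfsd2a least. After each group's mean was subtracted from the log2 values, the 45 pairs of genes had a median Pearson r of 0.57 over the 46 mice, from -0.20 (Mfsd2a and Cldn5) to 0.85 (Tek and Vwf, and Pecam1 and Tek). Genes in a library share its depth, which the TMM scaling takes into account, and the piece of tissue taken. The part of either in these correlations was not tested. Replicate 5 labelled FMN2-/-_APP contributed to the median, which was 0.44 without that library. The r of a gene with the mean of the other 9 was 0.87 for Abcb1a, 0.82 for Ly6c1, 0.81 for Tek and 0.79 for Vwf, against 0.50 for Cldn5 and 0.092 for Mfsd2a, and without that library it was 0.37 for Cldn5 and 0.21 for Mfsd2a. Mfsd2a followed the glucose carrier Slc2a1 (r = 0.57) more than any other of the 10.

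**Figure D4:**
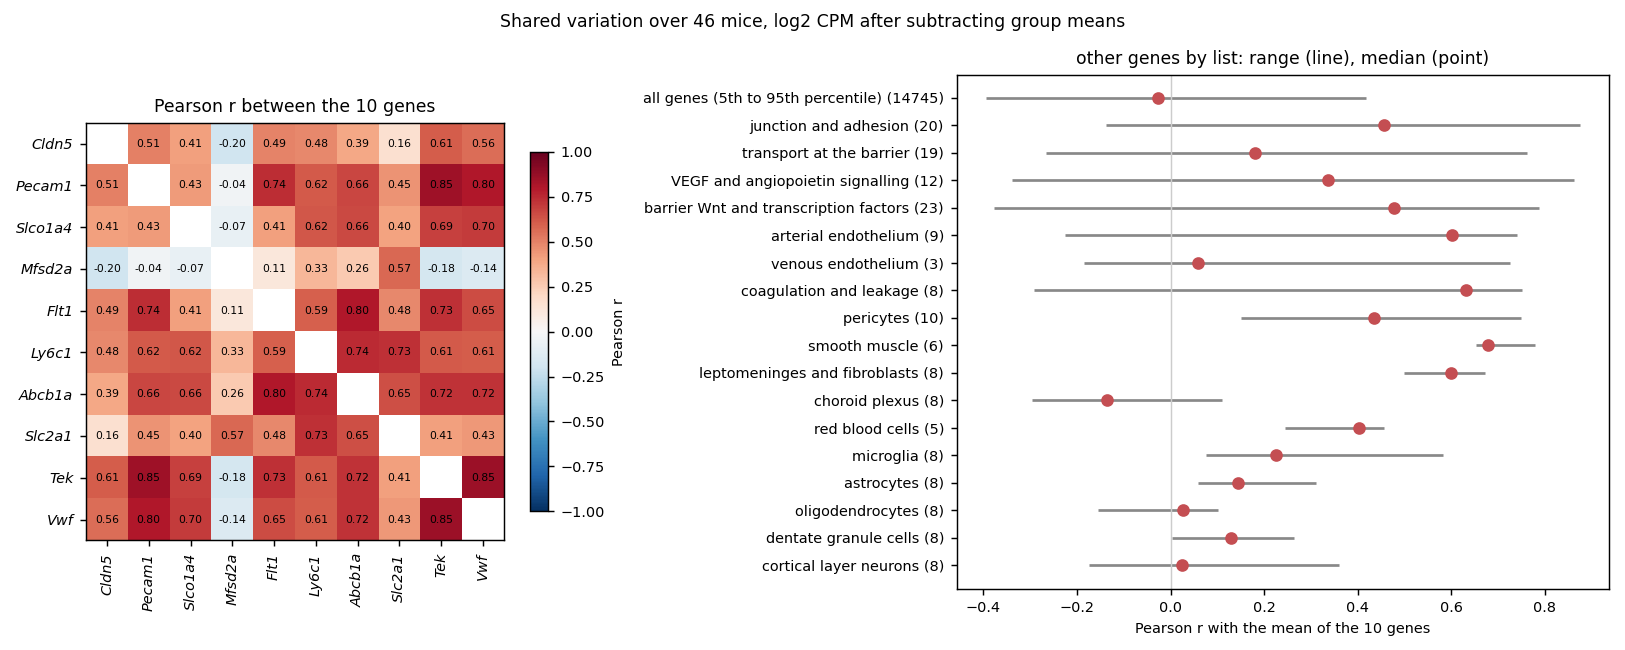
Left, Pearson r between each pair of the 10 genes over 46 mice after subtracting group means from log2 CPM. Right, r of the genes of each list with the mean of the 10 genes (horizontal axis), with the line for the range and the point for the median, and for all 14745 genes the 5th to 95th percentile; smooth muscle has the highest median, 0.68, and choroid plexus the lowest.

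Among 14745 genes with a mean of at least 1 CPM, those most like the mean of the 10 were Cdh5 (VE-cadherin of endothelial contacts, r = 0.88), Eng (a TGF-beta co-receptor, 0.86), Ptprb (a phosphatase of endothelial contacts, 0.86), Ly6a (0.86), Anxa3 (0.84), Fn1 (fibronectin, 0.83), Acvrl1 (a TGF-beta family receptor, 0.82), Itih5 (0.82), Adgrl4 (0.81) and Adgrf5 (0.81). The median over all genes was -0.03, and 3.15% of genes reached an r of 0.5. Of the lists, all 6 smooth muscle markers (median 0.68), 7 of 8 leptomeningeal and fibroblast markers (median 0.60), 5 of 9 arterial and 5 of 8 coagulation genes, 11 of 23 barrier Wnt and transcription factor genes and 8 of 20 junction genes reached it. None of the markers of choroid plexus, red cells, astrocytes, oligodendrocytes, granule cells or cortical neurons did, and 1 of 8 microglial, 3 of 10 pericyte, 5 of 12 VEGF and angiopoietin, and 5 of 19 transport genes did.

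Near-identical gene copies were low where they could share reads. Ly6c2 reached at most 0.121 CPM, Slco1a5 3.13 CPM and Slco1a6 1.06 CPM, and Abcb1b, the other mouse P-glycoprotein gene, lay between 2.45 and 7.75 CPM. The values of Ly6c1, Slco1a4 and Abcb1a are uncertain to the extent that shared reads were left uncounted or counted for another copy.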

How the data were processed

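RNA of 46 mice was sequenced as unstranded TruSeq libraries, in which overlapping antisense reads cannot be told apart. Per the labels and the study's methods, the authors aligned reads to mm10 with STAR, counted them per gene with HTSeq and deposited raw counts per library, the unit used here. The 2 mice with 2 runs each had their counts summed. The members and gene lists were chosen with earlier results of these data known. Levels are CPM after TMM scaling over the 46 mice, and per-kilobase values use exon lengths of the mm10 annotation. Each comparison was fitted over all genes left by edgeR's filter, with edgeR's quasi-likelihood test (version 4.0.16, R 4.3.3) and Benjamini-Hochberg adjustment. Calls needed an adjusted p below 0.05 and a log2 fold change of at least 0.25 (Fmn2 experiment) or 0.5 (amyloid experiments) in size. The age comparisons and the interaction shared 1 fit. Named were the 10 genes, up to 5 called genes of each other list (the 3 most changed where more were called), the 10 genes most like the members, and Fmn2 and related copies because labels or reads turn on them. For lists with no call the gene of smallest p is not printed here, nor is Mfsd2b, and some items are not reported here. Correlations used log2(CPM + 0.5). Alternatives were DESeq2 1.42.0, RLE scaling, no filter, length and GC offsets, the replicate block, the lane, summing 2 similar libraries and leaving out each mouse. The fit was tested on simulated data. The authors' comparisons were not used.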

Additional observations from a re-analysis of the deposited data

Results flagged for a closer look

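In groups of 5 to 9 mice, 70 combinations of gene and group were checked for a mouse set apart from the rest by Dixon's criterion at 95%, which chance meets in about 1 of 20, and 12 met it. Of these, 5 were in replicate 5 labelled FMN2-/-_APP, whose Pecam1 (30.6 CPM), Slco1a4 (51.8), Abcb1a (28.1), Tek (17.98) and Vwf (44.9) were all above the rest of the group. This library also held the group's highest smooth muscle sum, 146 CPM. Replicate 4 of the wild-type mice at 4 months was set apart by Slco1a4 (78.7 CPM) and Vwf (25.3 CPM), and replicate 2 of the Fmn2-/- mice at 3 months by Mfsd2a (36.4 CPM) and Flt1 (82.7 CPM). The other 3 were Cldn5 in wild-type replicate 5 at 4 months (23.9 CPM, below the rest), Ly6c1 in APP replicate 3 at 4 months (24.04 CPM) and Abcb1a in Fmn2+/+ replicate 1 at 3 months (29.6 CPM).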

How the results depend on the processing

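Counts of the 10 genes called at 8 months went from 1 to 0 with edgeR without robust estimation (added after seeing the data), RLE scaling, length and GC offsets, the replicate block, the block with these offsets, the lane, and Fmn2-/- replicates 2 and 3 (the most alike pair) summed, to 3 without the filter, and ranged from 0 to 3 with each mouse left out. At 8 months Fmn2+/+ replicate 1 was the only library off lane 7, so the lane setting largely repeats leaving that mouse out. The replicate block there used numbers that did not pair the mice, with Fmn2-/- replicates 4 and 5 unmatched. These settings are therefore not all separate checks. With age in Fmn2+/+ mice, 2 became 0 without the filter, with the offsets, the replicate block, both, or the lane, and 1 with the summed pair (0 to 3 with each mouse left out, 3 without Fmn2+/+ 8-month replicate 2). With age in Fmn2-/- mice, 1 became 0 under the same 6 settings (0 to 1). The interaction's 0 ranged from 0 to 3 and the cross's 1 from 1 to 2. No member was called at 3 months or in APP mice under any setting. The log2 fold change of Cldn5 at 8 months turned to 0.094 with the offsets and 0.058 with block and offsets (-0.36 to 0.068 with each mouse left out), and that of Tek with age in Fmn2-/- mice to -0.016 with the lane. The causes were not tested. By total-count CPM the 10 genes summed to 309 CPM in Fmn2+/+ mice at 3 months, against 324. Of 468 values of named genes under alternatives, 396 kept direction and side of the threshold and 4 reversed.

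All genes called at 8 months numbered 312, but 694 by DESeq2, 166 without robust estimation, 1324 without the filter, 41 with offsets, 4 with the replicate block, 5 with block and offsets, 3 with lane and 11 with the pair summed, and from 6 to 3114 with each mouse left out (6 without Fmn2+/+ replicate 1, 3114 without replicate 2). In the interaction 671 became 1406 by DESeq2, 21 with offsets, 95 with the block, 1 with block and offsets, 1 with lane and 244 with the pair summed; with age in Fmn2+/+ mice 1574 became 883, 653 (block and offsets) and 58 (lane), and in Fmn2-/- mice 1107 became 570, 577 (block), 371 and 0 (lane), with 294 higher and 276 lower under the offsets against 431 and 676. The lane counts of the interaction and the ages come from the fit that links the lanes through single libraries. With each mouse left out the interaction ranged from 8 to 2805, age in Fmn2+/+ mice from 468 to 2971, 3 months from 3 to 50 and the cross from 70 to 160. At 3 months 6 became 90 by DESeq2, 3 with RLE scaling, offsets or block and offsets, 34 without the filter and 2 with the block, and in the cross 125 became 359 by DESeq2. The count with the lane at 3 months is left out, since that fit rests on 1 Fmn2-/- library. Replicate numbers did not pair the mice: deviations of same-numbered mice had mean correlations from -0.0499 to 0.0992.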
